A study of Mus musculus with 12 samples.

Results

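Riociguat for 6 h was compared with its solvent, DMSO, for 12 h in cultured mouse liver cells that the labels call HSCs, read here as hepatic stellate cells because the abbreviation is not spelled out. The members are the 6 libraries of these groups, 3 with riociguat and 3 with DMSO, of 12 libraries in the series, taken by their labels. The cells were freshly isolated from wild-type mice and plated in 6-well format. Both groups were cultured for 12 h, given new medium and collected 24 h after it. Counted from the new medium, riociguat went in at 18 h and DMSO at 12 h. The compound and the length of exposure therefore differ together between the groups, and their parts in a change cannot be told apart. A further group had riociguat for 12 h, added at the same stage as DMSO, and its values are set beside those at 6 h. The dose and the age of the mice are not given in the sources used here. Nothing in the labels says that replicates are separate animals or isolations, so the p-values rest on a spread between samples that may be only technical.

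Riociguat binds soluble guanylate cyclase, the nitric oxide receptor that makes cyclic GMP, and raises the output of the enzyme. Cyclic GMP acts mainly through protein kinase G, which relaxes contractile cells, and through phosphodiesterases that break down cyclic nucleotides. Hepatic stellate cells store retinoids in the healthy liver. In culture and in fibrosis they turn into contractile myofibroblasts that express smooth muscle actin and lay down collagen.

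Of 16036 genes that passed a filter on low counts, 1559 were called changed at 6 h (quasi-likelihood test of edgeR, p under 0.05 after Benjamini-Hochberg adjustment), which is 9.72% of all genes tested. Of these, 718 were higher with riociguat (4.48%) and 841 lower (5.24%). Most changes were small. The median log2 fold change was 0.33 among the genes that rose and -0.33 among those that fell, and 1169 of the 1559 were under 0.5 in size. Only 44 genes rose and 42 fell by 1 or more on the log2 scale. Leaving out 1 library at a time gave between 955 calls (without DMSO replicate 2) and 1852 (without DMSO replicate 1), and the count fell by more than 1.5 times also without DMSO replicate 3 (992) and without riociguat replicate 2 (1010). Between riociguat 6 h and riociguat 12 h, 976 genes differed (6.09% of those tested), 564 of them higher at 6 h (3.52%) and 412 lower (2.57%). Below, levels are CPM, counts scaled to a common library total, the error of a level is the SD (n = 3), and the error of a log2 fold change is its SE.

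**Figure D1:**
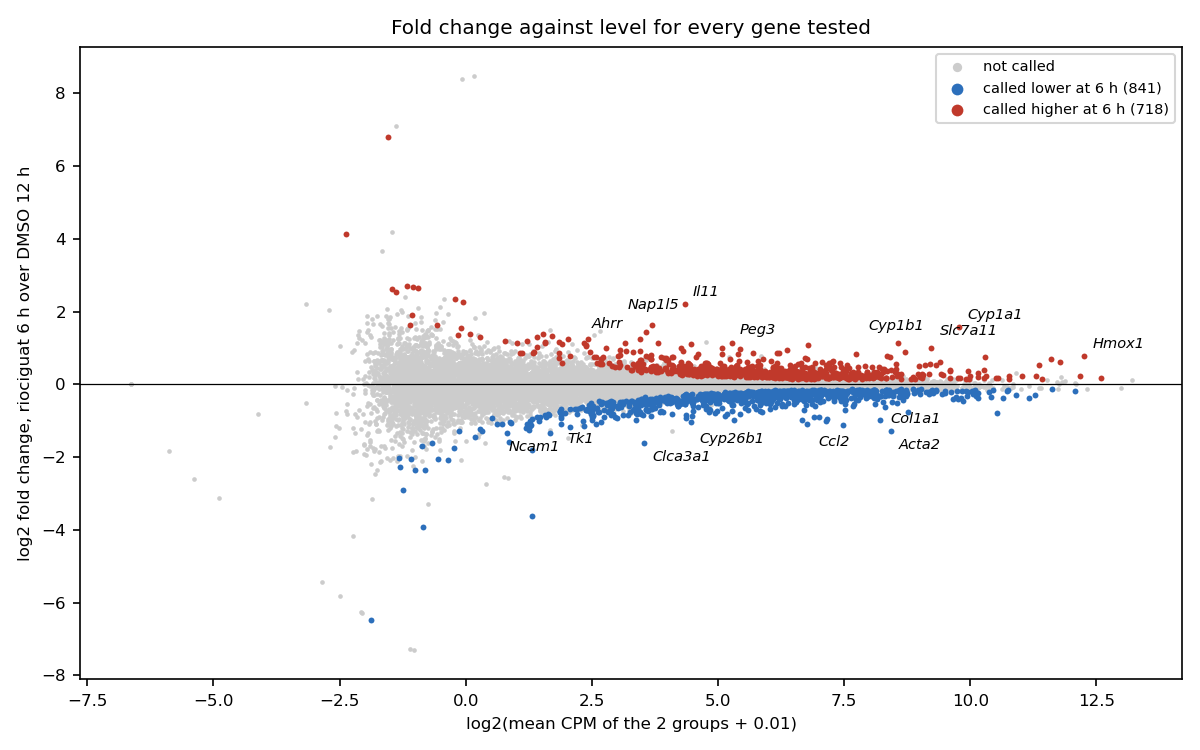
Log2 fold change of riociguat 6 h over DMSO 12 h (vertical axis) against the mean level of the 2 groups in CPM, on a log2 axis, for every gene tested. Red points are the 718 genes called higher and blue points the 841 called lower; Cyp1a1, Hmox1 and Cyp1b1 stand above 0 and Acta2 and Ccl2 below it at high levels.

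The libraries held between 12953096 and 27358893 counts, with the lowest and the highest total both in the 6 h group. Mitochondrial genes took 2.61% to 4.51% of the counts in DMSO and 3.21% to 3.89% with riociguat. DMSO replicate 1, at 4.51%, stood apart. In a chi-square test over genes its value per degree of freedom was 12.3 and 16.0 against the other DMSO libraries, while all pairs within the riociguat 6 h group lay between 4.87 and 6.43. For most lists, counts of changed members are therefore given with their range, or their lowest counts, when each of the 6 libraries is left out in turn. Of 59 members that are given by name only, 45 lost their call under at least 1 alternative setting. The stellate identity list summed to between 3537 and 3636 CPM in DMSO and between 3807 and 3970 CPM with riociguat. The higher sum was not shared by most of its 21 genes. Their log2 fold change was above 0 for 8 and below it for 13, with a median of -0.045. Lrat, the enzyme that esterifies retinol for storage, was at 6.12, 5.60 and 2.71 CPM in DMSO and 4.64, 4.42 and 4.67 CPM with riociguat. Des, the intermediate filament desmin, was at 173, 208 and 191 and 178, 168 and 165 CPM. These defining stellate genes were thus present in every library.

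RNA of other liver cells was present too. The 15 sinusoidal endothelial markers summed to between 2050 and 2173 CPM in DMSO and between 2189 and 2329 CPM with riociguat. Of these markers 3 rose and 2 fell (Eng and Vwf). With 1 library left out 3 to 5 rose and 0 to 2 fell, and none fell without riociguat replicate 2. Cdh5, the junction protein VE-cadherin, was at 308, 332 and 328 CPM in DMSO and 433, 389 and 405 CPM with riociguat (log2 fold change 0.34 ± 0.05, edgeR adjusted p = 9.75e-05). Kdr, a receptor for VEGF, rose by 0.37 ± 0.05, and Stab1, a scavenger receptor, by 0.29 ± 0.05. The 15 hepatocyte markers summed to between 1537 and 1612 CPM in DMSO and between 1362 and 1524 CPM with riociguat, with 1 called (Ass1, higher; 0 to 1 with 1 library left out). The 14 macrophage markers tested summed to between 152 and 165 CPM against 138 to 143 CPM, with 1 called (Lyz2, lower; 0 whichever library was left out). Of 10 lymphocyte markers 4 passed the filter, with summed levels under 5 CPM, and none of 8 neutrophil markers did. Of 9 cholangiocyte markers, of bile duct cells, 3 fell (Sox9, Cldn4 and Muc1), or 1 to 2 with 1 library left out. All treated libraries lay below all DMSO libraries for 7 of the 9, and for 13.6% of all genes tested. The cholangiocyte markers summed to between 685 and 736 CPM in DMSO and between 634 and 676 CPM with riociguat. The 8 mesothelial markers, of the liver surface, summed to between 711 and 741 CPM in DMSO and between 632 and 713 CPM with riociguat, all 8 with a log2 fold change below 0 and 1 of them called (Lrrn4; 0 to 1 with 1 library left out). In bulk samples fewer cells of a type and less RNA per cell cannot be told apart. The part that endothelial, hepatocyte, macrophage, cholangiocyte or mesothelial RNA may have in the results below was not tested.

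Genes that answer to the aryl hydrocarbon receptor (AHR) rose. This transcription factor is activated by planar ring compounds and switches on enzymes that oxidise them. Of 11 AHR pathway genes tested 7 rose and none fell, and the count was 7 whichever library was left out. Their median log2 fold change was 0.60, against -0.00442 over all genes tested. Cyp1a1, the oxidising enzyme that is the usual readout of the pathway (ENSMUSG00000032315, chromosome 9, 57687928 to 57703824, GRCm38), was at 399.8, 455 and 461 CPM in the DMSO libraries and 1324, 1294 and 1313 CPM in the riociguat libraries. Every treated library lay far above every DMSO library, and the treated libraries were close together, at 1310.3 ± 15.3 CPM (SD, n = 3) against 439 ± 33.8 CPM in DMSO. The log2 fold change was 1.58 ± 0.05 (edgeR adjusted p = 1.4e-11). After 12 h with riociguat Cyp1a1 stood between the groups, at 880.3, 784 and 857 CPM.

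Its relative Cyp1b1, an enzyme that also oxidises oestrogens and retinoids, was at 267, 216 and 223 CPM in DMSO and 486, 522 and 553 CPM with riociguat and rose by 1.15 ± 0.07. The genes that switch the pathway off again moved in the same direction. Ahrr, the AHR repressor, was at 6.89, 6.28 and 6.05 CPM in DMSO and 18.4, 15.6 and 18.5 CPM with riociguat. The groups did not overlap, and the rise was 1.45 ± 0.13 (edgeR adjusted p = 8.54e-07). Tiparp, which modifies AHR with ADP-ribose and so limits it, went from 74.5, 72.3 and 64.6 CPM to 137, 149 and 160.0 CPM and rose by 1.08 ± 0.07. Conjugating and reducing enzymes of the list rose as well: Nqo1, a quinone reductase, by 0.60 ± 0.04, the aldehyde dehydrogenase Aldh3a1 by 1.14 ± 0.23 and the glucuronosyltransferase Ugt1a6a, which shares exons with other Ugt1a genes, by 0.41 ± 0.08. By contrast, the receptor Ahr was at 65 ± 5.53 CPM in DMSO and 65.5 ± 5.17 CPM with riociguat (log2 fold change 0.01 ± 0.07, edgeR adjusted p = 0.933), and its DNA-binding partner Arnt at 86.8 ± 3.57 and 89.4 ± 3.42 CPM. Ahr and Arnt were named after their values were seen. Of the 11 genes, 4 were higher at 6 h than after 12 h of riociguat and none was lower.

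Promoter sequence was read for the groups that moved together, from RefSeq's 250 bases directly before the start of each gene (GRCm38.p6). Of 16016 gene symbols tested, 11627 had such a window. The core of the site that AHR binds, TNGCGTG on either strand, was in 1 of 8 windows of AHR pathway genes and in 7.45% of all windows. It was in 6.84% of windows of genes that rose and in 10.3% of those of genes that fell. The only AHR pathway gene with a match was Ahrr, which is shown here. The match is in capitals.
Ahrr (chr13:74292332-74292581, minus strand): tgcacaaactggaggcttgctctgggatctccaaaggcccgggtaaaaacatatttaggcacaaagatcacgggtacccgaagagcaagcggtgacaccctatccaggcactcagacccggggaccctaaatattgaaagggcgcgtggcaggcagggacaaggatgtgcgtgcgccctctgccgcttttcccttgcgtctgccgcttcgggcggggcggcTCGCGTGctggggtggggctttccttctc
Its match begins 29 bases before the start. A match is a description of these letters and not a measured site.

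Genes of glutathione metabolism rose together. Glutathione is the main small thiol of the cell, made from cystine taken up from outside, and NRF2 is the transcription factor best known for raising its synthesis. Of 20 genes tested 14 rose and 1 fell, 13 to 14 rose with 1 library left out, and the median log2 fold change was 0.34. Slc7a11, the cystine transporter, was at 460.2, 376 and 355 CPM in DMSO and 728, 798 and 870.2 CPM with riociguat. The lowest treated library stood above the highest DMSO library, and the log2 fold change was 1.01 ± 0.09 (edgeR adjusted p = 1.28e-06). Both subunits of the rate-limiting ligase rose: Gclc, the catalytic one, went from 279, 299 and 298 CPM to 544, 552 and 535 CPM, a rise of 0.90 ± 0.05, and Gclm, the modifier, from 501, 554 and 520.1 CPM to 765, 729 and 768 CPM, a rise of 0.52 ± 0.04. Gss, which adds the last amino acid, rose by 0.61 ± 0.05. The transferase Gsta4 rose by 0.55 ± 0.04, and the exporter Abcc4 by 0.49 ± 0.04. The exception was Gpx1, a glutathione peroxidase named after its values were seen, which fell by 0.25 ± 0.05 from 136 ± 5.51 to 115 ± 2.39 CPM.

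The thioredoxin, NRF2 and detoxification list had 14 of 20 genes higher and none lower (13 to 14 with 1 library left out). Nqo1 is counted both here and in the AHR list. Srxn1, which repairs over-oxidised peroxiredoxins, was at 873, 969 and 959 CPM in DMSO and 1637, 1495 and 1573 CPM with riociguat and rose by 0.75 ± 0.05 (edgeR adjusted p = 1.64e-08). The peroxide-reducing enzymes Prdx1 and Prdx6 rose by 0.60 ± 0.04 and 0.53 ± 0.04, and the carbonyl-reducing enzymes Cbr3 and Akr1b8 by 0.56 ± 0.06 and 0.35 ± 0.05. The rise of Txnrd1, thioredoxin reductase, was smaller. It was at 1809, 1951 and 1984 CPM in DMSO and 2292, 2219 and 2243 CPM with riociguat, which did not overlap (log2 fold change 0.23 ± 0.04, edgeR adjusted p = 0.00115), and at 1805 ± 41.9 CPM after 12 h with riociguat. These enzymes draw on NADPH, and 5 of 11 genes of the pentose phosphate and NADPH list rose, with Idh2, of mitochondria, lower (4 to 5 higher and 0 to 1 lower with 1 library left out). Pgd, the second oxidising enzyme of the pentose phosphate pathway, rose by 0.41 ± 0.04 from 1061 ± 19.9 to 1406 ± 46.2 CPM. G6pdx, the first enzyme of that route, rose by 0.29 ± 0.05, and the NADPH-making enzymes Idh1 and Me1 by 0.49 ± 0.06 and 0.24 ± 0.04. The other gene that rose was Taldo1, transaldolase.

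Heme and iron genes rose in part, among them genes of heme breakdown and iron export. Of 24 genes tested 8 rose and 1 fell, with 6 to 8 higher when 1 library was left out. Hmox1, heme oxygenase, which opens heme and frees its iron, was at 3379.5, 3728 and 3785 CPM in DMSO and 6505, 5940.4 and 6109.5 CPM with riociguat. All treated libraries lay above all DMSO libraries, with a log2 fold change of 0.77 ± 0.05 (edgeR adjusted p = 1.64e-08), and after 12 h with riociguat Hmox1 was at 4157 ± 135 CPM. Blvrb, a biliverdin reductase, rose by 0.43 ± 0.05. Ferroportin, the iron exporter encoded by Slc40a1, went from 152, 159 and 148 CPM to 273, 267 and 282 CPM and rose by 0.84 ± 0.05. Fth1, the ferritin heavy chain that stores iron, rose by 0.24 ± 0.04, the heme transporter Slc48a1 by 0.29 ± 0.04 and the porphyrin transporter Abcb6 by 0.43 ± 0.07. The gene that fell was Slc11a2, an iron importer named after its values were seen, by 0.20 ± 0.05. Compared with riociguat for 12 h, 10 glutathione genes, 7 thioredoxin and detoxification genes and 4 heme and iron genes were higher at 6 h, and no gene of these lists was lower.

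**Figure D2:**
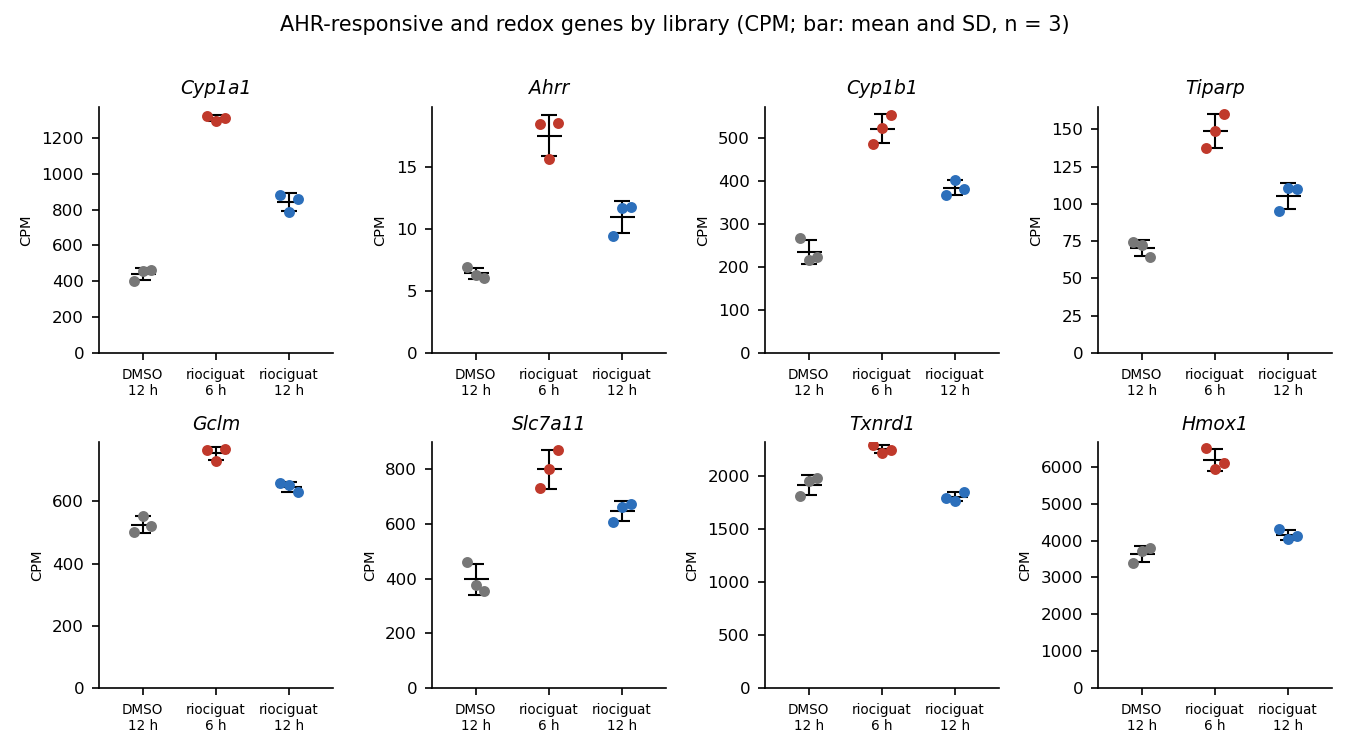
Level in CPM (vertical axes, from 0) of 4 AHR-responsive genes (top) and 4 redox genes (bottom) in each library of DMSO 12 h, riociguat 6 h and riociguat 12 h; bars are the mean and SD of 3 libraries. For all 8 genes the 3 riociguat 6 h libraries lie above the 3 DMSO libraries; Cyp1a1 reaches a mean of 1310.3 CPM from 439 CPM.

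The antioxidant element that NRF2 binds has the core TGACNNNGC. It was found on either strand in 4 of 16 windows of glutathione genes (25%) and in 4 of 19 of thioredoxin, NRF2 and detoxification genes (21.1%), against 13.8% of all windows. It was also in 17.7% of the 541 windows of all genes that rose and in 13.8% of the 630 of those that fell. Gclm and Txnrd1 are shown as risen genes with a match, in capitals, one from each list.
Gclm (chr3:122245307-122245556, plus strand): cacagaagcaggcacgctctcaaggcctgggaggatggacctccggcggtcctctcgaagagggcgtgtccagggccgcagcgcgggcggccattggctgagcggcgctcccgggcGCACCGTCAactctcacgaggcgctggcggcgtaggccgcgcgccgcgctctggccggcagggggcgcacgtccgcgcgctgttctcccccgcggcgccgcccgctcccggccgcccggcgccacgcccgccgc
Txnrd1 (chr10:82858956-82859205, plus strand): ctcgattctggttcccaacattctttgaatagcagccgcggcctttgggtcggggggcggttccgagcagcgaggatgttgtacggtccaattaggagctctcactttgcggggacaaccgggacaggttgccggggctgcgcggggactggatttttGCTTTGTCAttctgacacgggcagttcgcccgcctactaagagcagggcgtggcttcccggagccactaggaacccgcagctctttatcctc
The match begins 134 bases before the start in Gclm and 92 bases before it in Txnrd1, for which 1 of several annotated starts is printed. Both matches lie on the strand opposite to the gene.

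Genes of DNA replication fell. Of 31 genes tested 22 fell and none rose, and 25 had all treated libraries below all DMSO libraries, which was so for 13.6% of all genes tested. With 1 library left out 17 to 21 fell, and the median log2 fold change was -0.39. All 6 subunits of the MCM helicase, which unwinds DNA, were among them. Mcm5 was at 53.1, 57.9 and 59 CPM in DMSO and 38.5, 35.4 and 34.7 CPM with riociguat and fell by 0.65 ± 0.07 (edgeR adjusted p = 6.52e-06), and Mcm7 fell by 0.44 ± 0.05. Cdc6, which loads the helicase onto origins, went from 14.6, 12.6 and 16.6 CPM to 7.23, 8.93 and 8.08 CPM and fell by 0.84 ± 0.12. Uhrf1, which brings DNA methyltransferase to new strands, was at 60.2, 55.9 and 62.4 CPM in DMSO and 37, 36.5 and 36.8 CPM with riociguat. The groups did not overlap, with means of 59.5 ± 3.28 and 36.8 ± 0.266 CPM, and Uhrf1 fell by 0.69 ± 0.07. The methyltransferase Dnmt1 fell by 0.29 ± 0.04 and Pole, a replicative polymerase, by 0.60 ± 0.08. After 12 h with riociguat Mcm5 was at 55.1, 52 and 53.8 CPM and Uhrf1 at 58.4, 52.4 and 59.8 CPM, within or near the DMSO range. At 6 h 14 of the 31 genes were lower than at 12 h with riociguat and none was higher.

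The E2F-type element TTCCCGC was on either strand in 8 of 26 windows of replication genes (30.8%) and in 7.76% of all windows. It was in 9.84% of windows of genes that fell, 6.1% of those of genes that rose and none of 33 windows of mitosis genes. Cdc6 and Uhrf1 are printed as fallen genes with a match, in capitals.
Cdc6 (chr11:98907901-98908150, plus strand): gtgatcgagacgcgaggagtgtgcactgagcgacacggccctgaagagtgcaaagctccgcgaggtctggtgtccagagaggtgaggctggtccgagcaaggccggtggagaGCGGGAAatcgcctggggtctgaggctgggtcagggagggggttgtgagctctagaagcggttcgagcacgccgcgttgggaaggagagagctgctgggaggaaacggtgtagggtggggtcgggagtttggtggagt
Uhrf1 (chr17:56303087-56303336, plus strand): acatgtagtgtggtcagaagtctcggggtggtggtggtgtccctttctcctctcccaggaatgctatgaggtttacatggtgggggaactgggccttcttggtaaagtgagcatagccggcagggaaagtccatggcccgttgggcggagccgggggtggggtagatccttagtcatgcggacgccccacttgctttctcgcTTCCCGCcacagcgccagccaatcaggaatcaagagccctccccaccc
The match begins 138 bases before this RefSeq start of Cdc6, on the opposite strand, and 48 bases before this start of Uhrf1. The Cdc6 window lies inside the gene by its GENCODE position, which starts at 98907801.

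Nucleotide supply and mitosis genes fell in part, with counts that rested more on single libraries. In the nucleotide synthesis list 10 of 20 genes fell and none rose. That count was 4 without DMSO replicate 2 or 3, 5 without riociguat replicate 1 or 3, 6 without riociguat replicate 2 and 11 without DMSO replicate 1. Tk1, the thymidine kinase of S phase, was at 9.33, 8.55 and 6.63 CPM in DMSO, 3.85, 3.81 and 3.89 CPM after 6 h and 8.28, 9.41 and 9.73 CPM after 12 h with riociguat. Only the 6 h libraries were low, and the log2 fold change against DMSO was -1.08 ± 0.15 (edgeR adjusted p = 0.000102). Rrm2, the regulated subunit of ribonucleotide reductase, fell by 0.75 ± 0.09 from 35.5 ± 3.29 to 21.1 ± 1.86 CPM. Dut, which serves thymidylate synthesis, fell by 0.74 ± 0.14. Of 39 mitosis genes 13 fell and none rose, 8 to 14 with 1 library left out and 8 without riociguat replicate 3. Mki67, the proliferation marker, was at 45.5, 43.9 and 47.6 CPM in DMSO and 21.8, 27.7 and 25.1 CPM at 6 h and fell by 0.87 ± 0.09. The chromosome-untangling enzyme Top2a fell by 0.74 ± 0.09, the cyclin Ccna2 by 0.70 ± 0.10 and its kinase Cdk1 by 0.76 ± 0.12. Anln, a scaffold of the cleavage furrow, fell by 0.82 ± 0.09, and Foxm1, the transcription factor of mitotic genes, by 0.68 ± 0.12. Genes outside these lists were among the largest falls at low levels: Rad54l, of recombination repair, went from 5.78 ± 0.938 to 2.53 ± 0.0821 CPM, and the kinesin gene Kif18b from 5.06 ± 0.404 to 2.32 ± 0.6 CPM.

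Genes that carry cells through G1 fell in part. Of 25 genes of the G1 list 8 fell and 1, the kinase inhibitor Cdkn2b, rose (5 to 9 fell and 0 to 1 rose with 1 library left out, 5 without DMSO replicate 2 or riociguat replicate 2). Ccnd1, cyclin D1, was at 188, 186 and 196 CPM in DMSO and 99.3, 99.3 and 93.8 CPM with riociguat, no treated library coming near a DMSO library. It fell by 0.97 ± 0.06 (edgeR adjusted p = 1.69e-08) and stood at 135 ± 9.83 CPM after 12 h. Ccnd2 fell by 0.32 ± 0.05, the partner kinase Cdk6 by 0.55 ± 0.08 and the transcription factor E2f1 by 0.67 ± 0.11. ERK feedback genes, which are switched on by growth factor signalling and damp it, had 5 of 14 lower and none higher. That count was 3 without DMSO replicate 2 or 3 or riociguat replicate 1 or 2, and 4 without either other library. Spry1 fell by 0.73 ± 0.11 and Spry2 by 0.41 ± 0.07, and both kept their call in all of these. The others were Spry4, the phosphatase Dusp5 and Errfi1, an inhibitor of EGF receptors. Among growth factors and receptors 4 of 34 genes fell and 1 rose (2 fell without DMSO replicate 2 or 3, and 3 rose without DMSO replicate 1). With all libraries 14.7% of this list was called, against 9.72% of all genes tested. Vegfc, the lymphatic growth factor, fell by 0.66 ± 0.08 and the receptor Fgfr2 by 0.37 ± 0.05, and the others that fell were Egfr and Igfbp7, while Fgf7, a ligand of that receptor, rose by 0.60 ± 0.10 from 21.6 ± 1.55 to 32.6 ± 1.94 CPM.

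Chemokine genes moved by member. Of 19 chemokine ligand genes tested, of 22 listed, 5 fell and 2 rose (4 to 6 fell and 1 to 2 rose with 1 library left out; 1 rose without DMSO replicate 1 or 2 or riociguat replicate 2). Ccl2, the main attractant of monocytes (ENSMUSG00000035385, chromosome 11, 82035571 to 82037453, GRCm38), was at 266, 234 and 232 CPM in DMSO, 128, 111 and 99.9 CPM after 6 h and 247, 218 and 216 CPM after 12 h with riociguat. The 6 h libraries were lower than all DMSO libraries and all 12 h libraries, and the log2 fold change against DMSO was -1.12 ± 0.09 (edgeR adjusted p = 3.14e-07). Ccl7, its neighbour in the same gene cluster, fell by 0.97 ± 0.08 from 135 ± 12.8 to 69 ± 5.44 CPM. Cxcl1, an attractant of neutrophils, was at 281, 229.9 and 225 CPM in DMSO and 169, 198 and 142 CPM at 6 h and fell by 0.53 ± 0.12. Cxcl12, which holds CXCR4-bearing cells near stroma, fell by 0.78 ± 0.07 from 1876 ± 98 to 1089.9 ± 24.2 CPM and was at 1002 ± 60.2 CPM after 12 h. Ccl6, another chemokine, rose from 14.1, 14.5 and 10.2 CPM to 25.6, 28.3 and 23.5 CPM without overlap (edgeR adjusted p = 0.000497). The remaining calls were Cxcl10, which was lower, and Cxcl13, which was higher.

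In the NF-kB list, which holds the subunits of this inflammatory transcription factor with its inhibitors and targets, 9 of 20 genes fell and 1 rose. The count of falls was 9 whichever library was left out. Nfkb2 and Relb, the subunits of the alternative pathway, fell by 0.35 ± 0.05 and 0.37 ± 0.07. The inhibitors Nfkbia, Nfkbie and Tnfaip3, themselves NF-kB targets, fell by 0.43 ± 0.06, 0.42 ± 0.07 and 0.43 ± 0.05. Icam1, the adhesion molecule for leukocytes, was at 91.4, 89.6 and 93.9 CPM in DMSO and 65.4, 65.1 and 59.9 CPM with riociguat, without overlap, and fell by 0.53 ± 0.05 (edgeR adjusted p = 2.67e-06). The gene that rose was Ptgs2, the inducible cyclooxygenase, by 0.35 ± 0.08 (edgeR adjusted p = 0.0119). It was no longer called with DMSO replicate 2 left out (0.31, edgeR adjusted p = 0.0674) or riociguat replicate 3 left out (0.30, adjusted p = 0.0716). Compared with 12 h of riociguat, 9 of the 20 genes were lower at 6 h and 1 was higher.

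Interleukin-6 family genes split. Of 24 genes tested of the IL-6, IL-1 and TNF families, 3 rose and 4 fell (1 to 3 rose and 3 to 5 fell with 1 library left out; 1 rose without DMSO replicate 2). Il11, a cytokine that acts on fibroblasts through the receptor chain gp130 (ENSMUSG00000004371, chromosome 7, 4772373 to 4782859, GRCm38), was at 6.03, 7.79 and 7.75 CPM in DMSO and 35, 30.4 and 34.3 CPM with riociguat. It rose by 2.20 ± 0.11 (edgeR adjusted p = 3.25e-09), the largest rise of any called gene whose larger group mean reached 5 CPM, and was at 38.4, 35.7 and 37.6 CPM after 12 h. Il6 was at a low level, with 2.58, 1.05 and 0.968 CPM in DMSO and 3.07, 4.09 and 4.08 CPM with riociguat. Its log2 fold change was 1.31 ± 0.30 (edgeR adjusted p = 0.00989), and it missed the threshold when DMSO replicate 2 (1.09, adjusted p = 0.0583) or DMSO replicate 3 (1.08, adjusted p = 0.0503) was left out. Meanwhile Il6st, which encodes gp130 itself, fell by 0.18 ± 0.04 from 638 ± 7.50 to 561 ± 10.6 CPM. Lif, another ligand of gp130, fell by 0.30 ± 0.06, and Csf1, the growth factor of macrophages, by 0.28 ± 0.05. The remaining calls were the receptor genes Il1rl1, which was higher, and Lifr, which was lower. In the complement list 3 of 14 genes fell and none rose (2 to 3 with 1 library left out). Masp1, the protease that starts the lectin pathway, was at 379, 411 and 391 CPM in DMSO and 206, 192 and 195 CPM with riociguat and fell by 0.99 ± 0.06. Clu, a chaperone that holds back the terminal complex, fell by 0.35 ± 0.07, and the inhibitor Serping1 was the other gene that fell.

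**Figure D3:**
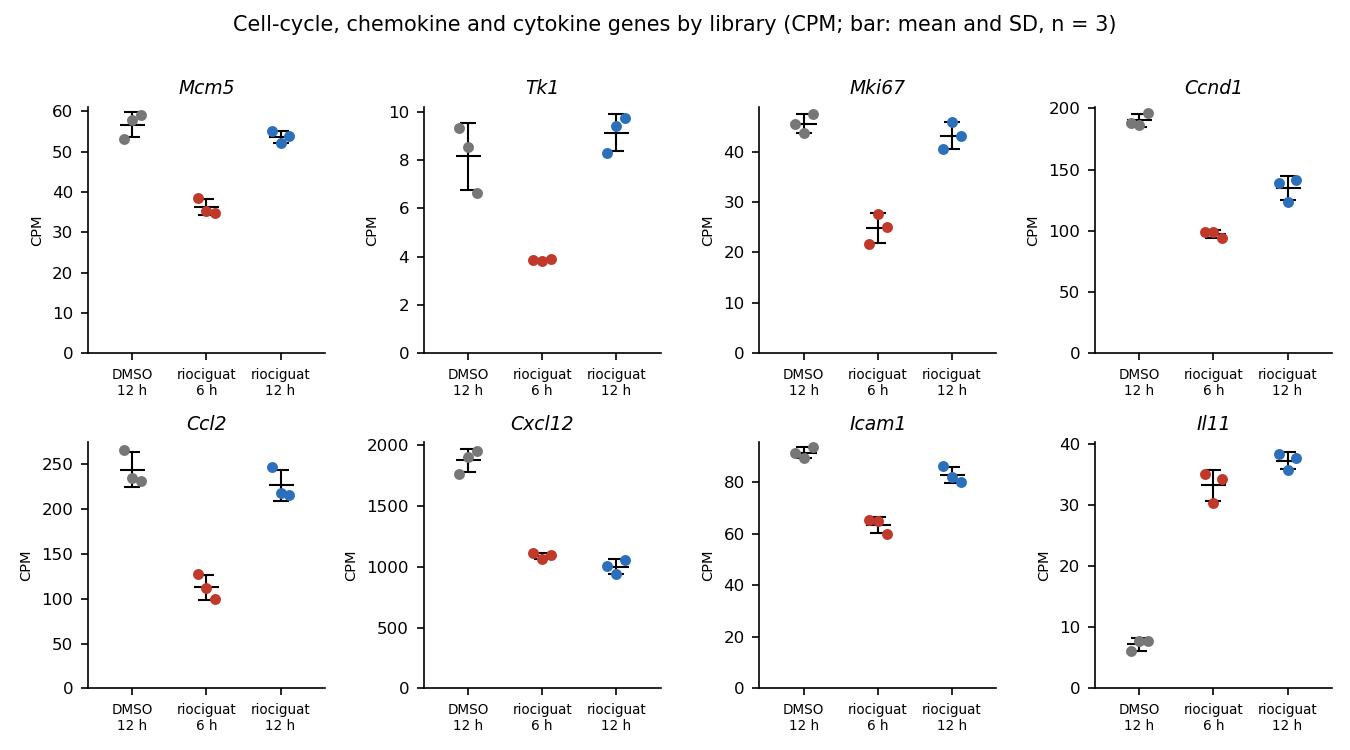
Level in CPM (vertical axes, from 0) of 4 cell-cycle genes (top) and 4 chemokine, adhesion and cytokine genes (bottom) in each library of DMSO 12 h, riociguat 6 h and riociguat 12 h; bars are the mean and SD of 3 libraries. Mcm5, Tk1, Mki67, Ccl2 and Icam1 are lowest in the 6 h libraries, while Il11 is high at both times of riociguat, at 33.2 and 37.2 CPM.

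Collagen and microfibril genes fell in part. Of 25 genes tested 11 fell and 1, Col12a1, rose (9 to 11 fell and 0 to 1 rose with 1 library left out), with a median log2 fold change of -0.14. Col1a1 and Col1a2, the chains of type I collagen, the main fibre of scar, both fell. Col1a2 was at 209.8, 239 and 234 CPM in DMSO and 144, 136 and 137 CPM with riociguat and fell by 0.71 ± 0.07 (edgeR adjusted p = 1.92e-06), while Col1a1 went from 352, 361 and 361 CPM to 258, 233 and 276 CPM and fell by 0.49 ± 0.07. The groups did not overlap for either. Col3a1, of type III collagen, was at 316 ± 7.32 CPM in DMSO and 287 ± 15.1 CPM with riociguat and did not pass (log2 fold change -0.14 ± 0.06, edgeR adjusted p = 0.176). The microfibril gene Col6a3 fell by 0.60 ± 0.04 and Fbn1, fibrillin, by 0.48 ± 0.04. Col14a1, which sits on fibre surfaces, fell by 0.70 ± 0.06, and Fbln2, fibulin 2, by 0.61 ± 0.07. Fbln2 is also on the portal fibroblast marker list, which summed to between 487 and 569 CPM in DMSO and between 393 and 436 CPM with riociguat. Of its 9 genes tested 1 rose and 1, Fbln2, fell, also with any 1 library left out. The log2 fold change was above 0 for 4 of them and below it for 5, with a median of -0.015. The part of such cells was not tested. At 6 h 12 of the 25 genes were lower than at 12 h with riociguat and 1 was higher.

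Basement membrane genes divided. Of 18 genes tested 10 fell and 3 rose (7 to 9 fell and 2 to 3 rose with 1 library left out). Col4a1 and Col4a2, the common type IV collagen chains, fell by 0.38 ± 0.05 and 0.31 ± 0.04, from means of 2589.8 and 1229 CPM. Larger falls were seen in the network collagens Col8a1, by 0.93 ± 0.10, and Col15a1, which was at 12.6, 14.7 and 13 CPM in DMSO and 7.39, 7.86 and 7.78 CPM with riociguat and fell by 0.80 ± 0.11. Of the laminin beta chains, Lamb1 fell by 0.25 ± 0.04 and Lamb2 rose by 0.30 ± 0.05. The other laminin chains that rose were Lama1 and Lamc1. In the list of matricellular proteins and proteoglycans, which shape cell contacts with matrix, 8 of 23 genes fell and none rose (7 with any 1 library left out). Postn, periostin, was at 26.1, 32 and 29.2 CPM in DMSO and 17.4, 15.7 and 14.8 CPM with riociguat and fell by 0.88 ± 0.10. Thbs2, a thrombospondin, fell by 0.83 ± 0.09, the small proteoglycan Bgn by 0.35 ± 0.04, and Tnc, tenascin C, by 0.37 ± 0.06.

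Of 23 collagen processing genes 7 fell, none rose and 16 were not called. Leaving out DMSO replicate 2 gave 3 falls, leaving out DMSO replicate 3 gave 4, and the other libraries gave 5 to 8. Pcolce, which speeds the removal of the procollagen tail, was at 76.9, 83 and 82.2 CPM in DMSO and 50.6, 49.9 and 50.3 CPM with riociguat and fell by 0.68 ± 0.06 (edgeR adjusted p = 8.54e-07). Adamts14, which removes the other end, fell by 0.80 ± 0.08, and the cross-linking enzyme Loxl4 by 0.54 ± 0.05. Of 25 matrix proteases and inhibitors 6 fell and 2 rose (4 to 7 fell and 1 to 2 rose with 1 library left out). Mmp11 was one of those that rose, and the other was Mmp3, stromelysin, which went from 454, 441 and 445 CPM to 664, 651 and 636 CPM and rose by 0.54 ± 0.04. The metalloproteinase inhibitors Timp2 and Timp3 fell by 0.35 ± 0.04 and 0.51 ± 0.07, and Adamts9, a proteoglycan-cutting enzyme, by 0.91 ± 0.05. Adam12, a membrane protease known from activated stellate cells, was outside these lists and was at 136, 160.4 and 148 CPM in DMSO and 65, 69.9 and 72 CPM with riociguat, a fall of 1.10 ± 0.06.

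Genes of the TGF-beta pathway, the main driver of collagen synthesis, changed in part, with 8 of 28 lower and 1 higher (7 to 9 and 1 to 2 with 1 library left out). Ltbp1, which holds latent TGF-beta in matrix, and its relative Ltbp2 fell by 0.51 ± 0.06 and 0.76 ± 0.06. Smad3, the signal transducer, was at 107, 115 and 106 CPM in DMSO and 85.1, 84.2 and 79.8 CPM with riociguat and fell by 0.40 ± 0.05. The target Tgfbi fell by 0.50 ± 0.06, and Smurf2, a ubiquitin ligase that limits the pathway, rose by 0.28 ± 0.04. Among 30 BMP pathway genes 5 fell and 1 rose (4 to 5 and 1 to 3 with 1 library left out; 3 rose without DMSO replicate 1 and 2 without riociguat replicate 1). Of those that fell, 4 encode ligands and the other was Id2, a target. Bmp10 was at 153, 169 and 176 CPM in DMSO and 96.8, 78 and 92.6 CPM with riociguat and fell by 0.90 ± 0.09 (edgeR adjusted p = 2.67e-06), and it was lower still after 12 h, at 40.9, 42.4 and 45.9 CPM. Gdf2, which encodes BMP9 and shares receptors with BMP10, fell by 0.44 ± 0.06, yet was at 59.3 ± 2.55 CPM after 12 h against 47.6 ± 2.47 CPM in DMSO. Gdf10 fell by 0.68 ± 0.10 and Gdf6 by 0.80 ± 0.14. The ligand Bmp6, which tells hepatocytes of iron load, rose by 0.31 ± 0.07.

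**Figure D4:**
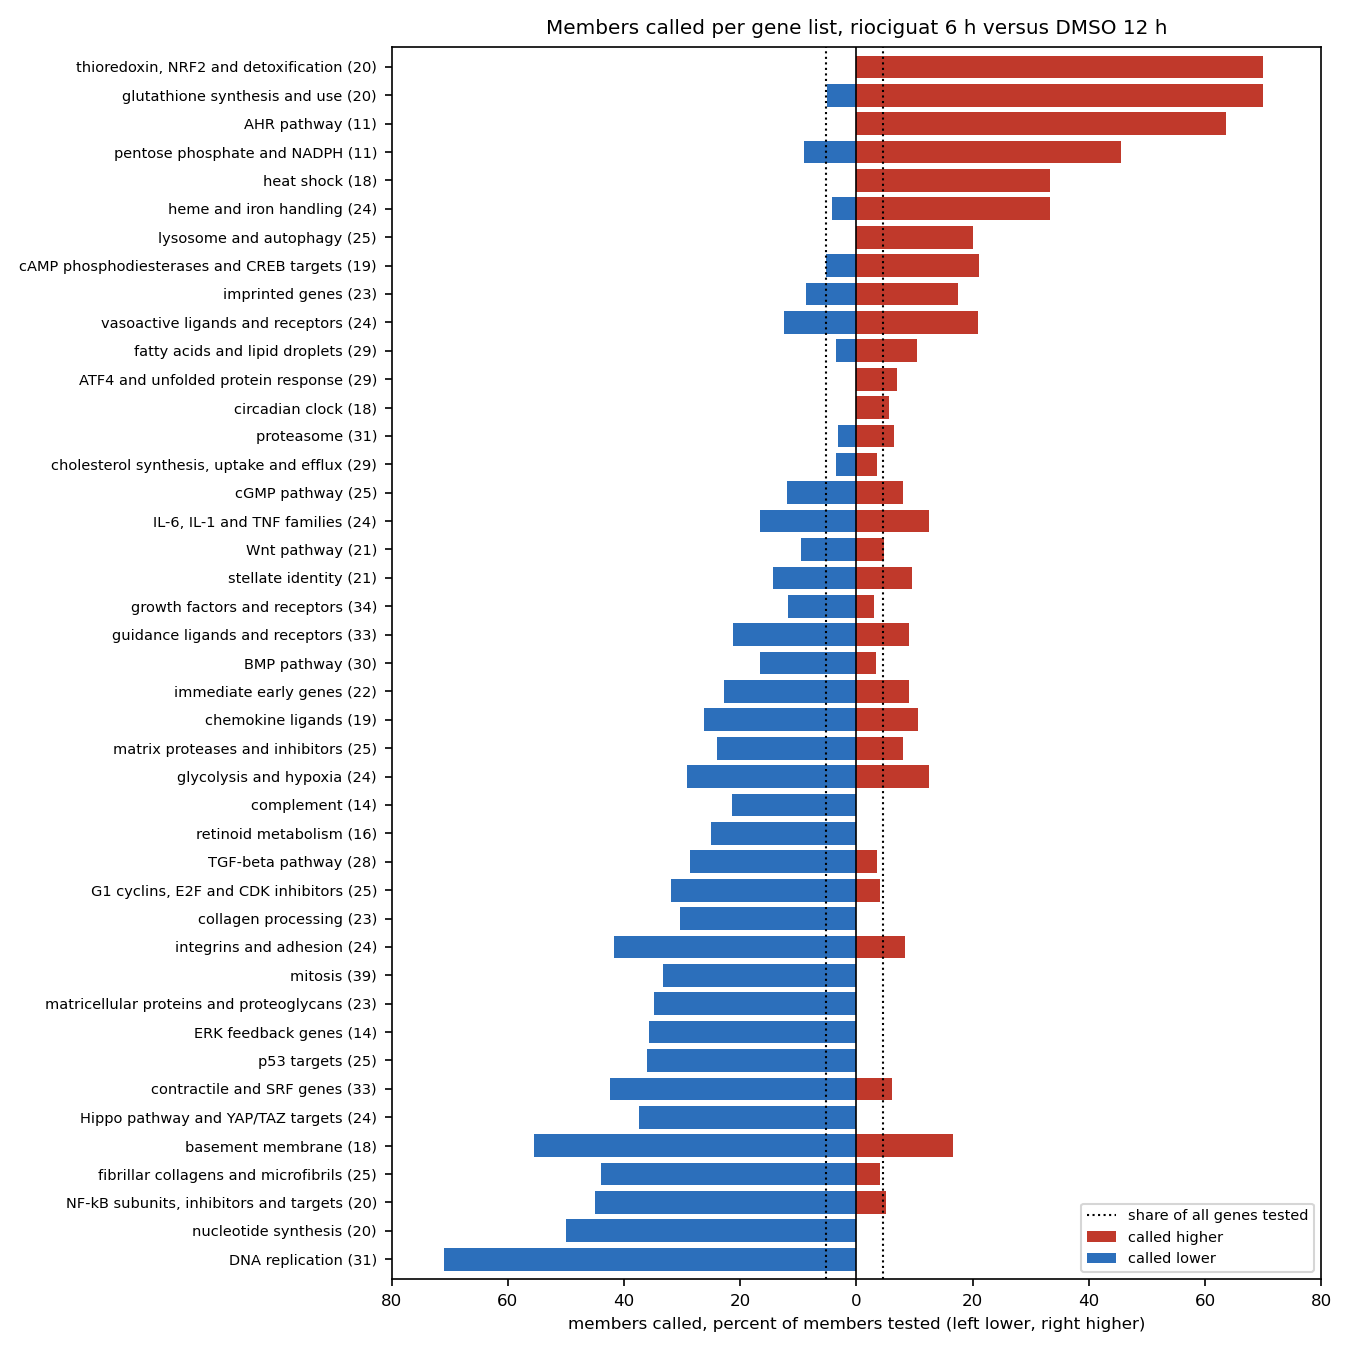
Share of the tested members of each pathway list that was called higher (red, right) or lower (blue, left) at 6 h, in percent, with the number tested in brackets; lists without a call are not drawn. Dotted lines mark the share of all genes tested, 4.48% higher and 5.24% lower; thioredoxin, glutathione and AHR lists stand at the top and DNA replication at the bottom.

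Contractile genes, which mark the myofibroblast state, fell in part at 6 h. Of 33 contractile and SRF genes tested 14 fell and 2, Vcl and Csrp2, rose (10 to 17 fell and 1 to 2 rose with 1 library left out). Acta2, the actin of smooth muscle, on chromosome 19 of GRCm38, was at 418, 525 and 508 CPM in DMSO, 227, 178 and 197 CPM after 6 h and 122, 120.4 and 136 CPM after 12 h. The 3 groups did not overlap. Against DMSO the log2 fold change at 6 h was -1.27 ± 0.09 (edgeR adjusted p = 5.62e-08). Tagln, which stabilises actin bundles, was at 473, 591 and 581 CPM in DMSO and 342, 304 and 318 CPM at 6 h and fell by 0.77 ± 0.09. The myosin light chain Myl9 fell by 0.72 ± 0.09, the kinase Mylk, which phosphorylates it, by 0.34 ± 0.06, the actin cross-linker Actn1 by 0.41 ± 0.05 and Smtn, smoothelin, by 0.30 ± 0.05. DMSO replicate 1 was the lowest DMSO library for Acta2, Tagln and Myl9. At 6 h 22 of the 33 genes were higher than at 12 h with riociguat and 1 was lower.

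The CArG box, the element that SRF binds, was in 7 of 27 windows of contractile and SRF genes (25.9%) and in 1.44% of all windows. Among genes that fell 2.86% of windows held it and among those that rose 2.59%. The list was picked to hold SRF genes, so its share does not bear on the fall. Vcl, a gene of the list with a match, rose. Myl9 is printed as a fallen gene with a match, in capitals.
Myl9 (chr2:156775214-156775463, plus strand): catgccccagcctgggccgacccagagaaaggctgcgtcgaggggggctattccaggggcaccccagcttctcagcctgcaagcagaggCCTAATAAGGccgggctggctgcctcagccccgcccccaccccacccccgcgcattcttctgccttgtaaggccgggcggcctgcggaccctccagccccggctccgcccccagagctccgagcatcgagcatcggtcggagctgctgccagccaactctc
The match begins 161 bases before the start.

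Targets of YAP and TAZ, coactivators that respond to tension in the actin skeleton, fell in part. Of 24 Hippo pathway and YAP/TAZ genes 9 fell and none rose (7 to 10 with 1 library left out), and 11 were higher at 6 h than at 12 h while 1 was lower. Ankrd1, a usual readout of these factors, was at 917, 1008 and 1014 CPM in DMSO, 752, 722 and 742 CPM at 6 h and 398, 372 and 435 CPM at 12 h. The 6 h libraries lay between the others, and the fall against DMSO was 0.41 ± 0.07. Ccn1, a secreted matricellular protein, fell by 0.47 ± 0.06 and Amotl2, a YAP-binding scaffold, by 0.38 ± 0.05. The nucleotidase Nt5e fell by 0.41 ± 0.07, and Dlc1, a tumour suppressor, by 0.37 ± 0.05.

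Of 25 genes of the cGMP pathway, on which riociguat acts, 2 rose and 3 fell, which is 20% called against 9.72% of all genes tested, and the median log2 fold change was -0.00478. With 1 library left out 0 to 2 rose and 2 to 4 fell, none rose without riociguat replicate 2, and 1 rose without DMSO replicate 1 or riociguat replicate 3. The subunits of the cyclase itself did not pass: Gucy1a1 was at 69.6 ± 9.06 CPM in DMSO and 67.4 ± 2.84 CPM with riociguat (edgeR adjusted p = 0.809), and Gucy1b1 at 68.3 ± 1.40 and 72.9 ± 4.55 CPM (edgeR adjusted p = 0.387). Pde5a, the phosphodiesterase specific for cyclic GMP, was at 12.3, 10.1 and 12.6 CPM in DMSO and 13.8, 13 and 15.8 CPM with riociguat (log2 fold change 0.29 ± 0.13, edgeR adjusted p = 0.181). The largest called change was in Mrvi1, which encodes the protein kinase G substrate also named Irag1 that restrains calcium release. It was at 50.1, 55.6 and 54 CPM in DMSO, 25, 27.5 and 27.5 CPM after 6 h and 25.1, 26 and 28.2 CPM after 12 h, and fell at 6 h by 0.99 ± 0.08 (edgeR adjusted p = 2.16e-07). Pde1a, which breaks down both cyclic nucleotides, was lower at 6 h, with 35.3, 40.8 and 40.2 CPM against 48.7, 47.4 and 49.6 CPM in DMSO, a fall of 0.32 ± 0.07, and stood above DMSO after 12 h, at 63, 67.2 and 67.7 CPM. Prkg1, protein kinase G itself, was at 16.5, 16 and 18.6 CPM in DMSO and 21.5, 25.3 and 21.7 CPM with riociguat and rose by 0.43 ± 0.10 (edgeR adjusted p = 0.00759), a call that was lost without riociguat replicate 2 (0.35, adjusted p = 0.0571). The phosphodiesterase Pde10a was the other gene that rose. The natriuretic peptide clearance receptor Npr3 fell by 0.33 ± 0.08, also not called without riociguat replicate 2 (-0.29, adjusted p = 0.0658).

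Cyclic AMP is the sister messenger of cyclic GMP. In the list of cAMP phosphodiesterases and CREB targets 4 of 19 genes rose, 1 fell and 14 were not called, with 4 to 5 higher and 0 to 1 lower when 1 library was left out. Of those that rose, 3 encode phosphodiesterases that break down cyclic AMP. Pde7b was at 24.8, 21.9 and 21.2 CPM in DMSO, 45.1, 41.3 and 48.1 CPM after 6 h and 46, 46.4 and 42.9 CPM after 12 h, and rose at 6 h by 0.99 ± 0.08 (edgeR adjusted p = 2.33e-07). Pde4b went from 61.7, 66.1 and 66 CPM to 87, 90.3 and 87.5 CPM and rose by 0.45 ± 0.05. Pde4d was at 13.5, 10.1 and 12.8 CPM in DMSO and 15.7, 21.8 and 19.8 CPM with riociguat, the nearest libraries of the groups lying 2.23 CPM apart, and rose by 0.67 ± 0.12. Crem, a CREB family gene that is itself induced by cyclic AMP, rose by 0.55 ± 0.12 from 8.08 ± 0.938 to 11.8 ± 0.345 CPM, and the kinase Sik1 was the gene that fell.

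**Figure D5:**
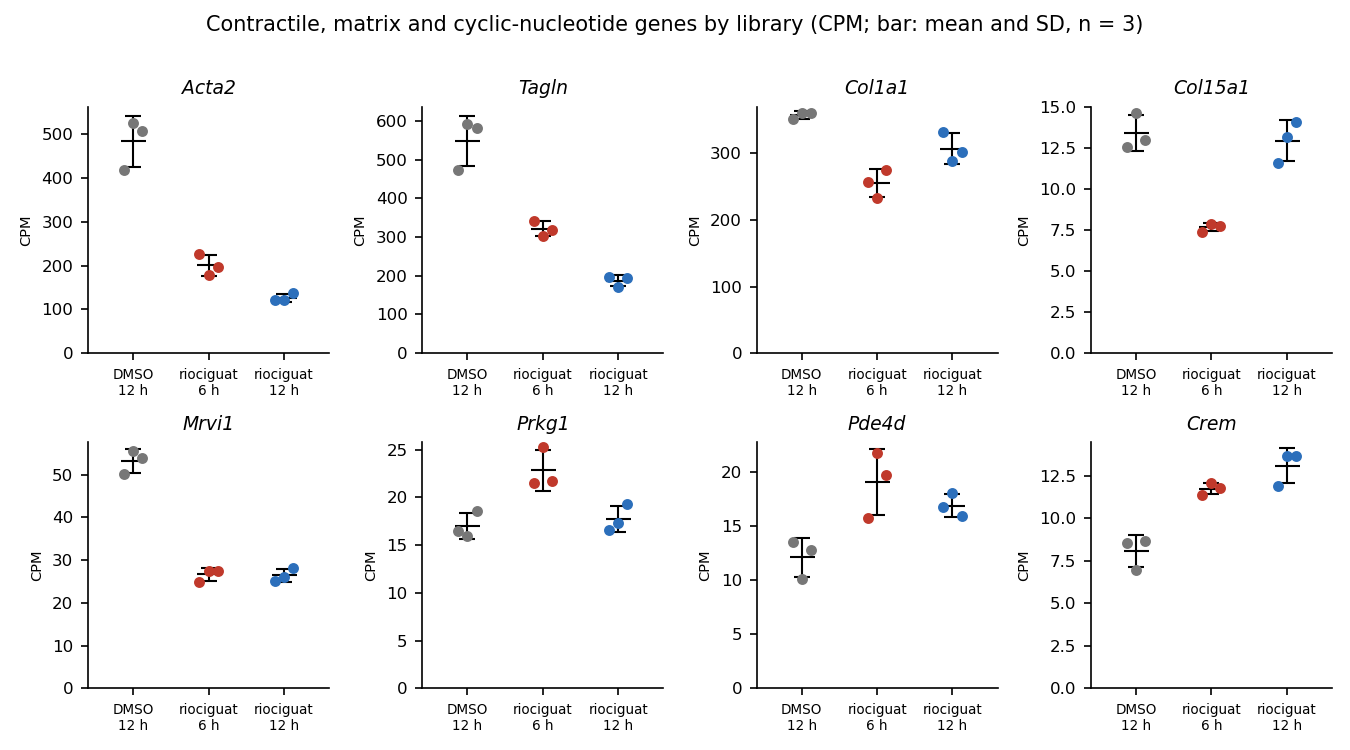
Level in CPM (vertical axes, from 0) of 2 contractile and 2 collagen genes (top) and 4 cyclic-nucleotide genes (bottom) in each library of DMSO 12 h, riociguat 6 h and riociguat 12 h; bars are the mean and SD of 3 libraries. Acta2 and Tagln are lower at 12 h than at 6 h, Mrvi1 is at about the same level at both times, 26.7 and 26.4 CPM, and Col15a1 is low at 6 h only.

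Receptors and enzymes of vessel tone moved both ways. Of 24 vasoactive ligands and receptors 5 rose and 3 fell (3 to 6 rose and 2 to 3 fell with 1 library left out, 3 rising without DMSO replicate 2 or riociguat replicate 3). Ednrb, the endothelin B receptor, was at 459, 402 and 394 CPM in DMSO and 594, 571 and 625 CPM with riociguat and rose by 0.51 ± 0.06. Ptgs1, the constitutive cyclooxygenase, rose by 0.54 ± 0.04, and the sphingosine phosphate receptor S1pr3 by 0.22 ± 0.04. Adora2a, the adenosine receptor that raises cyclic AMP, fell by 0.85 ± 0.11 from 26.5 ± 1.64 to 14.8 ± 1.24 CPM, and the peptide Adm, which acts through the same messenger, by 0.38 ± 0.06. The angiotensin receptor Agtr1a and Ptgs2 were the other genes that rose and Adora2b the other that fell.

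Retinoid genes, tied to the storage role of stellate cells, fell where they passed. Of 16 genes tested 4 fell and none rose (3 to 5 with 1 library left out). Cyp26b1, which degrades retinoic acid, was at 32.3, 25.3 and 31.2 CPM in DMSO and 12.7, 17.7 and 12.7 CPM with riociguat and fell by 1.03 ± 0.14 (edgeR adjusted p = 0.000136). Dhrs3, which turns retinal back to retinol, fell by 0.51 ± 0.08. The receptor Rarb and the retinol dehydrogenase Rdh10 fell by 0.53 ± 0.13 and 0.35 ± 0.09. Rarb missed the threshold with DMSO replicate 2 (-0.51, edgeR adjusted p = 0.0566) or riociguat replicate 1 (-0.44, adjusted p = 0.0611) left out, and Rdh10 with DMSO replicate 1 (-0.26, adjusted p = 0.0596) or 3 (-0.33, adjusted p = 0.0606) left out. In the stellate identity list 2 of 21 genes rose and 3 fell (2 and 3 to 5 with 1 library left out; 5 fell without DMSO replicate 1). Nes, nestin, was at 633, 693 and 678 CPM in DMSO, 895, 844 and 903 CPM at 6 h and 453, 430.1 and 458 CPM at 12 h, so that it was highest at 6 h, and rose by 0.40 ± 0.05. Reln, reelin, rose by 0.18 ± 0.04. Cygb, cytoglobin, fell by 0.55 ± 0.08 from 45.8 ± 3.17 to 31.4 ± 0.44 CPM, and the metalloreductase Steap4 by 0.59 ± 0.10. The other gene that fell was the transcription factor Tcf21.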

How the data were processed

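RNA was sequenced from 12 cultures of mouse liver HSCs in 4 groups of 3, and 6 libraries are compared here. The authors deposited expected counts for each gene, all of them whole numbers. FastQC, fastp, Salmon and DESeq2 and the build GRCm38 are named in the submitters' processing notes; their roles, versions and the strand setting are not given in the sources used here. Salmon shares reads among similar transcripts, so near-identical or overlapping genes are uncertain.

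The quasi-likelihood F test of edgeR 4.0.16 (R 4.3.3; glmQLFit, then glmQLFTest), two-sided, was run after filterByExpr and TMM scaling. All 12 libraries entered 1 fit whose single term was the group. Benjamini-Hochberg adjustment ran over all 16036 genes. CPM used TMM-scaled library totals. The SE is the log2 fold change over the root of F. Positions come from GENCODE vM21 and promoters from RefSeq (GRCm38.p6). Counts were also simulated for 15595 genes, with the same spread for every gene. Of 106 changes of 0.5 (log2) 76.4% were called, and of 94 changes of 1, 98.9%. The changed genes were not drawn from those with few counts, and no change under 0.5 was simulated. These rates therefore do not carry over to smaller changes, to genes at low levels or to genes with a wider spread.

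Gene lists (54, with 1134 genes tested) and members were chosen with earlier results of these data known. Named genes are those with the largest fold each way (15 risen, 15 fallen) among called genes whose groups did not overlap whose larger mean was 5 CPM or more and whose symbol is no clone or predicted-gene name, up to 6 members with the smallest p of each list, and 25 fixed genes. Not every gene of this rule is reported here. So that every called member of a list is named where 5 or fewer moved one way, and for the checks of the AHR and the cell type, 22 genes outside this rule were added after their values were seen (Ahr, Arnt, Gpx1, Slc11a2, Lrat, Des, Cxcl13, Lifr, Col12a1, Lama1, Lamc1, Mmp11, Vcl, Csrp2, Agtr1a, Adora2b, Itga8, Sema3e, Nrp1, Unc5b, Pkm and Ier5). Alternatives were DESeq2 1.42.0, RLE factors, no filter, the 6 libraries alone, a replicate block and leaving out each library.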

Additional observations from a re-analysis of the deposited data

Results flagged for a closer look

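For the 30 genes with the largest changes and the 25 fixed genes, 49 in all, riociguat at 6 h was tested against riociguat at 12 h, since both share the DMSO libraries and a difference between their changes equals this difference. It passed for 34 genes (edgeR's quasi-likelihood test, adjusted p under 0.05 over all genes), 17 higher and 17 lower at 6 h. The 30 genes were chosen by their change at 6 h, and the same 6 h libraries enter this test, so the number that passed is a description and is not set against all genes. The values below are log2 differences of riociguat 6 h over riociguat 12 h. The time since the compound was added and the stage of culture at its addition differ together between these groups and cannot be told apart.

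Among the genes that rose at 6 h, 4 of 5 AHR genes tested, Nqo1 aside, were higher at 6 h than at 12 h. They differed by 0.64 (Cyp1a1), 0.67 (Ahrr), 0.44 (Cyp1b1) and 0.50 (Tiparp). Nqo1, which is on the AHR list too, is counted with the redox genes. Of 6 redox genes tested 4 were higher, by 0.57 (Hmox1), 0.36 (Gclc), 0.22 (Gclm) and 0.32 (Txnrd1). The others did not pass: Aldh3a1 differed by 0.51 (edgeR adjusted p = 0.227), Slc7a11 by 0.31 (edgeR adjusted p = 0.0542) and Nqo1 by 0.03 (edgeR adjusted p = 0.823). Other genes that rose were higher by 0.98 (Akr1c14, a steroid-reducing enzyme), 1.07 (Brinp3), 0.85 (Peg3), 1.18 (Nefm), 0.61 (Mturn), 1.42 (Map7d2) and 0.37 (Prkg1). Map7d2, which binds microtubules, was at 14, 12.7 and 15 CPM in DMSO, 31.6, 28 and 30.5 CPM at 6 h and 12.3, 11.1 and 10.1 CPM at 12 h.

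Of the genes that fell at 6 h, only Acta2 and Tagln were higher at 6 h than at 12 h among these 34, by 0.67 and 0.78, as both were lower still at 12 h. The cell-cycle genes were lower at 6 h than at 12 h, with differences of -1.24 for Tk1, -0.88 for Kif18b, -0.79 for Mki67, -0.77 for Rad54l, -0.77 for Rrm2 and -0.47 for Ccnd1. The collagen genes, of which Col3a1 was not called against DMSO, differed by -0.27 (Col1a1), -0.46 (Col1a2) and -0.42 (Col3a1). For Ccl2 the difference was -1.01, for Masp1 -0.36, for Ncam1 -0.86, for Adam12 -0.62 and for Cyp26b1 -0.90. It was -0.64 for Ehd3, -0.67 for Ndufaf6 and -0.80 for Cpa4. Ehd3, of membrane recycling, was at 187, 191 and 187 CPM in DMSO, 94.8, 95.7 and 92.7 CPM at 6 h and 152, 138 and 151 CPM at 12 h.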

How the results depend on the processing

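For riociguat 6 h against DMSO 12 h, leaving out 1 library at a time gave 955 to 1852 called genes (1559 with all), 459 to 989 higher (718) and 496 to 863 lower (841). RLE factors gave 1563 calls, no filter 1986, the 6 libraries alone 1209 and DESeq2 1746. For riociguat 6 h against riociguat 12 h, leaving out 1 library gave 596 to 836 calls (976 with all), 324 to 491 higher (564) and 243 to 345 lower (412); without a filter 676 genes were lower. Of the 1559 calls 721 (46.2%) held in every leave-out. Of the 248 genes named here, 240 were called, none of these changed direction under any of 11 alternatives, and 188 kept the call under all of them. The other 52 lost it under at least 1: Prkg1, Npr3, Ptgs2, Il6, Rarb, Rdh10 and Zfp960, and 45 of the 59 given by name only. Direction reversed only in genes that were not called: over the leave-outs the log2 fold change ran from -0.13 to 0.055 for Gucy1a1, -0.051 to 0.083 for Ahr and -0.35 to 0.13 for Lrat. With DMSO replicate 1 left out Des was called (-0.22). Deviations of same-numbered DMSO and riociguat libraries had correlations of -0.03, -0.02 and -0.06, and those of differently numbered libraries ran from -0.03 to 0.06. So few values cannot tell whether the number stands for a shared isolation or batch. With a replicate block 1348 genes were called at 6 h against DMSO and 842 against riociguat 12 h. The causes of these shifts were not tested. The depth of 12953096 to 27358893 counts limits genes of a few CPM such as Il6.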

Other observations

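Imprinted genes, which are read from 1 parental copy, held some of the larger rises. Of 23 tested 4 rose and 2 fell (3 to 4 and 2 to 3 with 1 library left out). Peg3, a zinc finger gene, was at 24.9, 23.5 and 23.9 CPM in DMSO, 47.7, 56.3 and 55.4 CPM after 6 h and 28.9, 31 and 28.8 CPM after 12 h with riociguat, and rose at 6 h by 1.15 ± 0.08 (edgeR adjusted p = 1.33e-07). Nap1l5 was at 8.13, 6.11 and 4.79 CPM in DMSO and 19.3, 21.8 and 17.5 CPM at 6 h and rose by 1.62 ± 0.15. Mest rose by 0.28 ± 0.05, Zim1 was the other gene that rose, and the growth-limiting RNA H19 and the receptor Igf2r fell by 0.70 ± 0.13 and 0.31 ± 0.04. Genes at low levels were also among the largest rises: Tacr3, a tachykinin receptor, went from 3.20 ± 0.667 to 7.56 ± 1.01 CPM, the neurofilament gene Nefm from 5.54 ± 0.238 to 12.3 ± 1.20, Brinp3 from 2.41 ± 0.0861 to 5.75 ± 0.834, Mturn from 8.81 ± 1.16 to 19.2 ± 1.18, Akr1c14 from 6.52 ± 0.291 to 15.5 ± 1.07 and the potassium channel gene Kcnj6 from 2.35 ± 0.949 to 5.13 ± 0.168. Zfp960 rose by 1.09 ± 0.32, a call lost with the 6 libraries alone and in 5 of the 6 leave-outs. Among called genes whose larger group mean reached 5 CPM the largest fall was that of Clca3a1, from 18.4, 16.8 and 16.6 CPM to 6.53, 6.46 and 4.37 CPM (-1.60 ± 0.16). Plcl1, Ndufaf6 and Cpa4 fell by 1.03 ± 0.16, 0.99 ± 0.17 and 0.99 ± 0.16 from under 10 CPM.

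Adhesion, stress and metabolic genes changed in part. Of 24 integrin and adhesion genes 10 fell and 2 rose (8 to 11 and 1 to 2 with 1 library left out). Ncam1, the neural cell adhesion molecule, was at 6.79, 6.45 and 7.65 CPM in DMSO and 3.46, 3.07 and 2.97 CPM with riociguat and fell by 1.15 ± 0.20. The collagen receptor Itga1 fell by 0.36 ± 0.05, the hyaluronan receptor Cd44 by 0.44 ± 0.06 and the focal adhesion gene Parva by 0.32 ± 0.04, while Itgb3 rose by 0.34 ± 0.06 and Itga8 was the other that rose. Among 33 guidance genes 7 fell and 3 rose (6 to 7 and 2 to 4), and Sema6d fell by 0.54 ± 0.04 and Sema5a fell by 0.63 ± 0.09. The genes that rose were Sema3e, Nrp1 and Unc5b. Of 25 p53 targets 9 fell and none rose, 4 without DMSO replicate 2 or riociguat replicate 2. Mdm2 and Gtse1 fell by 0.27 ± 0.04 and 0.39 ± 0.07. Of 18 heat shock genes 6 rose, 2 without DMSO replicate 3 and 3 without riociguat replicate 2. The inducible chaperones Hspa1a and Hspa1b, near-identical copies whose reads cannot be fully told apart, rose by 0.33 ± 0.06 and 0.36 ± 0.07. Of 24 glycolysis and hypoxia genes 7 fell and 3 rose (2 to 8 and 2 to 3, with 2 to 4 lower without DMSO replicate 2 or 3 or riociguat replicate 2 or 3). The glucose transporter Slc2a1 rose by 0.42 ± 0.05, with Pkm and Egln3 also higher, while Ldha and the hypoxia factor Epas1 fell by 0.20 ± 0.04 and 0.43 ± 0.05. Of 29 cholesterol genes 1 rose and 1 fell, which is 6.90% called and below the 9.72% of all genes tested. The gene that rose was Abca1, which exports cholesterol, by 0.36 ± 0.05. Of 29 genes of fatty acids and lipid droplets 3 rose (Scd2, Elovl6 and Plin2) and Angptl4, an inhibitor of lipoprotein lipase, fell by 0.55 ± 0.05 (2 to 3 rose and 1 to 3 fell with 1 library left out). With all libraries 13.8% of this list was called, against 9.72% of all genes tested. Of 22 immediate early genes 5 fell and 2 rose; 1 to 2 fell without DMSO replicate 2 or 3 or riociguat replicate 2 or 3. Klf4 and Egr3 rose by 0.33 ± 0.06 and 0.78 ± 0.14, and those that fell were Fosb, Junb, Jund, Ier5 and Dusp1.

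Several lists held few calls or none by edgeR, where 9.72% of all genes tested were called. No gene passed among 27 interferon response, 16 Notch and 26 respiratory chain genes; at an unadjusted p under 0.05 there were 1, 1 and 4, and DESeq2 called none of them. Without DMSO replicate 1, 5 respiratory chain genes were called higher and 1 lower, and without riociguat replicate 1, 1 was lower; with no filter 3 were higher. Of the interferon genes 4 were called lower with no filter and 1 with the 6 libraries alone. Of 29 genes of ATF4 and the unfolded protein response 2 rose (Asns and Ddit4) and none fell, which is 6.90% called. Of 31 proteasome genes 2 rose (Psmd11 and Psmd14) and 1 fell (Psmb2), which is 9.68% called. With any 1 library left out 1 rose and 0 to 2 fell. Of 18 clock genes 1 rose (Nr1d2), which is 5.56% called, and 0 to 1 rose and 0 to 1 fell with 1 library left out. The lysosome and autophagy list stood above the share of all genes. Of its 25 genes 5 rose (Ctsb, Ctsd, Ctsl, Atp6v1h and Gabarapl1) and none fell, which is 20% called. With 1 library left out 4 to 6 rose.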
